A study of Oryza sativa with 6 samples.

Results

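The probes described here belong to 6 conserved plant microRNA families that act in development, miR156, miR159, miR160, miR164, miR167 and miR172. They were chosen by name, as every probe named for a rice microRNA of these families, and number 129 of the 510 microRNA probes and of the 42418 probes of the array that are not controls. They cover 43 precursors, each with 1 probe for the mature microRNA, 1 for sequence on its 5′ side and 1 for sequence on its 3′ side, called the 5′ and 3′ flank here. Each probe was printed as 2 spots. Probe names give the chromosome of each precursor. Start, end and probe sequence are not given in the sources used here, and neither is how far a flank reaches.

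The RNA came from the nucellar projection of rice seeds, a strip of maternal tissue beside the vascular bundle of the young seed, taken at 3 days after flowering. There were 2 arrays of A-OsMADS29 line 2, 2 of A-OsMADS29 line 14 and 2 of wild type. Both lines are in the background ZH11, which is also the wild type, and the labels give their genotype as OsMADS29 mutant without spelling out the prefix A or the kind of alteration. All plants were grown in pots in a phytotron at 26 °C in the light for 12 h and 18 °C in the dark for 12 h. Cells were cut out of sections with a laser, and their RNA was amplified in 2 rounds before it was labelled with Cy3 and hybridised to 1-colour Agilent arrays. Replicates are named as independent biological samples, but the number of plants or seeds behind each is not given, so the p-values measure the spread between these samples.

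MicroRNAs of plants are cut from a hairpin within a longer primary transcript and guide the cleavage or translational repression of matching messenger RNAs. miR156 acts on SPL transcription factors and keeps plants juvenile, and miR172 acts on AP2-type factors and promotes the adult and floral phases. miR159 acts on GAMYB-type factors of gibberellin response, miR164 on NAC factors of organ boundaries, and miR160 and miR167 on separate sets of auxin response factors. Primary transcripts carry a poly(A) tail and mature microRNAs do not, and kits that amplify from the tail copy polyadenylated RNA. A mature probe cannot tell the mature microRNA from a transcript that contains it. Members of a family have identical or nearly identical mature sequences, so their mature probes are not independent of each other, whereas the flanks differ more between precursors.

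miR160 was the only family of the 6 whose mature microRNA probes were all well above background on every array. "Well above background" is the scanner software's flag, and a probe counts as detected where at least 0.5 of its spots carry it. All 6 miR160 mature probes were detected on all 6 arrays, 5 or 6 of the 6 miR160 5′ flanks were detected on each array, and 13 of the 18 miR160 probes were detected on all 6 arrays. In the other 5 families 6 of 111 probes were detected on all 6 arrays, and all 6 are flanks. These are the 3′ flanks of miR156d, miR156h, miR164b and miR164f, and both flanks of miR159a. miR167 and miR172 stood at the other end. Of the 30 miR167 probes, 25 were detected on no array and 5 on some. Each array detected 1 of these, and none of them was detected on more than 2 arrays. None of the 4 miR172 mature probes was detected on any array, and its flanks were detected in line 2 alone, with 3 of 12 probes on each line 2 array.

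**Figure D1:**
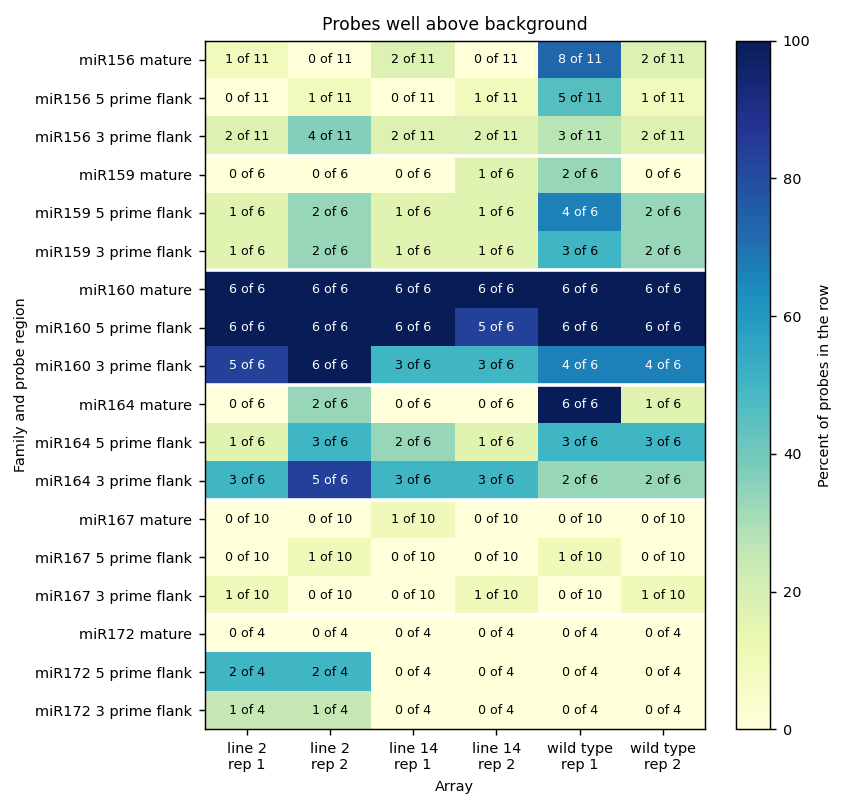
Number of probes well above background, by family and probe region (rows) on each array (columns), with the colour giving the percent of probes in the row. The miR160 mature row is at 6 of 6 throughout, and the miR172 flanks pass the flag on the line 2 arrays only. The miR156 and miR164 mature rows stand out on wild-type replicate 1, at 8 of 11 and 6 of 6.

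Over all 129 probes, 62 were detected on no array, 22 on 1 array and 19 on all 6. Of the 43 precursors, 11 had at least 1 region detected on all 6 arrays, and 2 of these, miR160b and miR160d, had all 3 regions so. On the other side, 9 precursors had no region detected on any array, namely miR156g, miR167b, miR167c, miR167d, miR167f, miR167i, miR167j, miR172c and miR172d. A mature probe was detected without either flank in 3 precursors, miR156a, miR156i and miR156l.

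The arrays differed in how many of these probes they detected, and wild-type replicate 1 stood apart. Of the 129 probes, the line 2 arrays detected 30 and 41, the line 14 arrays 27 and 25, and the wild-type arrays 53 and 32. In the 43 mature probes the line arrays detected 7 to 9, against 22 on wild-type replicate 1 and 9 on wild-type replicate 2. Probes that a single array detected numbered 5 on line 2 replicate 2, 1 on line 14 replicate 1, 14 on wild-type replicate 1 and 2 on wild-type replicate 2. In the other 381 microRNA probes the line 2 arrays detected 14.7% and 27.0%, the line 14 arrays 13.9% and 14.4%, and the wild-type arrays 29.1% and 18.4%. Over the whole array 72.9% to 79.8% of probes were detected on the line arrays, and 75.6% on wild-type replicate 1, which was not high there. Of the control spots with random sequence, the line 2 arrays detected 1.67% and 3.33%, the line 14 arrays 1.67% and 0.833%, and the wild-type arrays 4.17% and 0.833%. Those with genomic sequence reached 9.17% to 13.3%, highest on line 2 replicate 2.

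**Figure D2:**
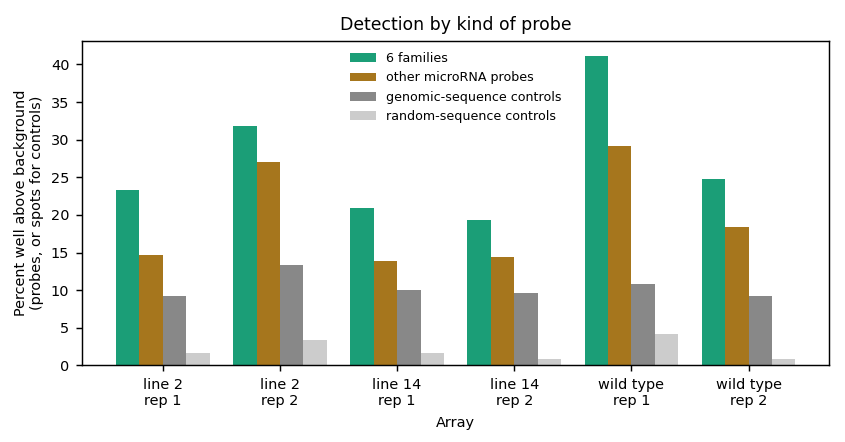
Percent of probes (of spots, for the controls) well above background on each array, for the 129 probes of the 6 families, the other 381 microRNA probes and 2 kinds of control sequence. The probes of the 6 families range from 19.4% on line 14 replicate 2 to 41.1% on wild-type replicate 1, above the genomic-sequence controls on every array.

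The share of mature probes that was detected was 16.3% and 18.6% on the line 2 arrays, 20.9% and 16.3% on the line 14 arrays and 51.2% and 20.9% on the wild-type arrays. For the 127 mature probes of other microRNAs it was 10.2% and 22% on the line 2 arrays, 12.6% and 11.0% on the line 14 arrays and 29.9% and 17.3% on the wild-type arrays. In the 6 families the high share was that of wild-type replicate 1 alone, and replicate 2 of the same group did not share it. Without that array the sign of the pooled difference turned in 10 of the 35 probes tested below, and over all 6 arrays left out in turn it turned in 12. Line 2 and wild type were hybridised on slide 1 and line 14 on slide 2, and effects of line 14 and of the slide cannot be told apart. Over all features tested, Pearson's r of replicates, taken across features, which are not independent, was 0.945 in line 2, 0.958 in line 14 and 0.916 in wild type. No spot was saturated. The RNA of the cut cells was measured together, so fewer cells of a kind and less RNA per cell cannot be told apart.

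The gene named in the mutant label was read as well. Its probes at locus Os02g0170300, taken as OsMADS29 from general knowledge since the files name no genes, were all detected on all 6 arrays. Averaged over the lines the brightest, the one tested, was -0.43 relative to wild type on the log2 scale (95% confidence interval -1.46 to 0.60, limma adjusted p = 0.876). The other read -4.50 and -3.74 on the line 2 arrays, -4.08 and -4.43 on the line 14 arrays and -4.63 and -3.42 on the wild-type arrays. Its groups overlap, and it was not tested. Neither probe checks the labels, because they do not say what the lines alter. The gene names needed for the microRNA targets and for markers of nucellus, endosperm and other seed tissues could not be attached to the array's loci, so neither the targets nor the labelled cell type was checked.

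The differences between the lines and wild type were tested in 35 of the 129 probes, those detected on both arrays of at least 1 group. They comprise 17 probes of miR160, 7 of miR164, 5 of miR156, 3 of miR159, 3 of miR172 and 0 of miR167. None was called in limma at an adjusted p of 0.05. The pooled comparison of both lines with wild type called 0.144% of the 22284 features tested, line 2 alone 0.0224% and line 14 alone 0.0404%. The smallest adjusted p among the 35 was 0.373 for both lines, 0.373 for line 2 and 0.364 for line 14. At an unadjusted limma p under 0.05, 7 of the 35 probes (20%) passed for both lines, against 7.88% of all features. Of these, 3 were higher in the lines (3.88% of all features) and 4 lower (4%). The split moved with some settings and stayed close with others. It was 3 higher against 0 lower once normexp and quantile normalization were applied, where 1747 of all 22284 features passed. With an intensity trend it was 2 and 0 (1620 features). It was 3 and 5 with quantile normalization alone (1711 features) and 4 and 4 with median scaling (1749 features). With the replicate block it was 3 and 5 (1897 features), and in the authors' deposited values 4 and 5 (1711 of 22283 features). At the same threshold 6 passed for line 2 against 6.4%, and 5 passed for line 14 against 7.12%. Among these 35, 16 were dim on some array, against 13% of all features, and a probe that passed the filter through 1 group alone was selected for signal in that group. Among the 19 probes detected on all 6 arrays, 1 passed (5.26%), against 5.62% of all such features. The 95% confidence interval of the pooled difference reached a median of 1.34 to either side for the 35 probes and 0.90 for all features, on the log2 scale.

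**Figure D3:**
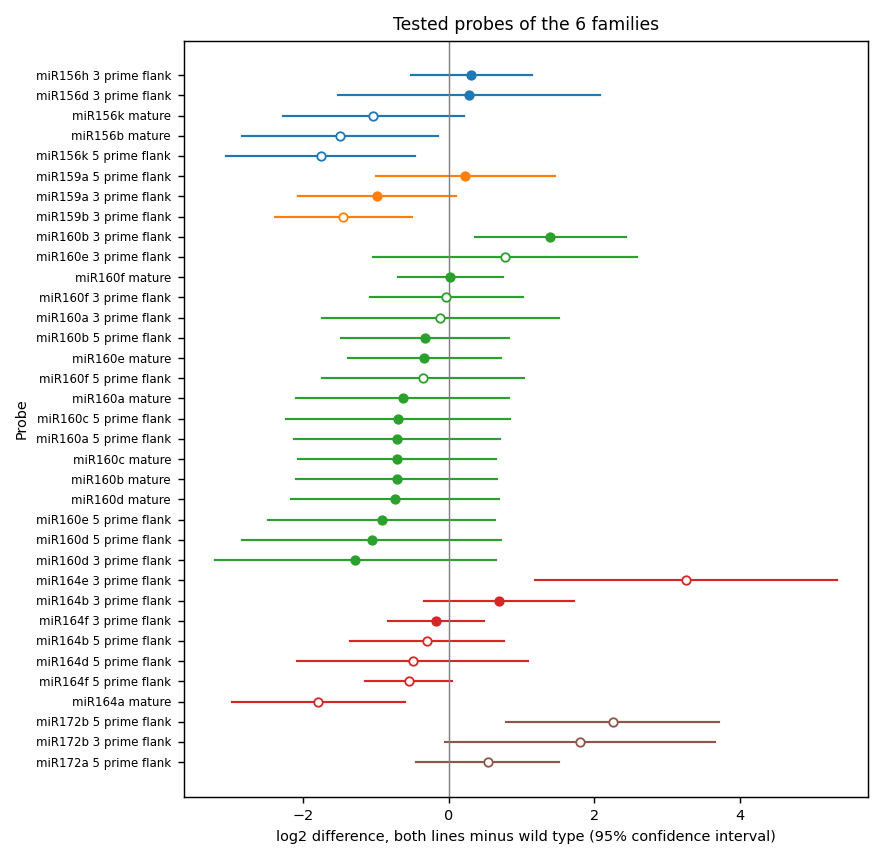
Log2 difference of both lines minus wild type for the 35 probes tested, with the 95% confidence interval, grouped and coloured by family. Filled points are probes detected on all 6 arrays and open points are dim on at least 1 array. Of the 7 intervals that leave out 0, only that of the miR160b 3′ flank belongs to a filled point.

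Of the 35 probes, 24 had a lower mean in the lines than in wild type and 11 a higher one, with a median difference of -0.35. Over all features 49.7% were lower and the median was 0.00. In line 2 alone 24 probes were lower (49.3% of all features), with a median of -0.62, and in line 14 alone 22 (49.1%), with a median of -0.26. Most of the shift sat in 1 wild-type array. Wild-type replicate 1 exceeded replicate 2 in 29 of the 35 probes (82.9%, against 49% of all features), by a median of 1.06 over the 35 probes, and was the highest of the 6 arrays in 20 of them, against 23.6% of all features. Over the same 35 probes the median difference was 0.11 without it, with 16 lower and 19 higher, and -0.84 without wild-type replicate 2. The medians of the single lines without wild-type replicate 1 were -0.08 in line 2, with 19 lower, and 0.15 in line 14, with 14 lower. The wild-type replicates lay more than 1 apart on the log2 scale in 62.9% of the 35 probes, against 26.1% of all features. In 25 probes (71.4%) they lay further apart than the lines lay from wild type, against 66.9% of all features. All 4 line arrays lay below both wild-type arrays in 5 probes (8.84% of all features) and above both in 3 (7.66%).

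miR160 had 17 probes tested, and none was called at the adjusted threshold. At an unadjusted limma p under 0.05, 1 passed for both lines, the 3′ flank of miR160b. Signal is given from here on as the log2 processed intensity minus the 75th percentile of the array, and values of different probes are not comparable with each other. The miR160e mature probe, on chromosome 7, read -4.65 and -4.17 on the line 2 arrays, -4.42 and -3.80 on the line 14 arrays and -3.40 and -4.45 on the wild-type arrays. The wild-type arrays are the highest and the second lowest of the 6, so the groups overlap. Its difference was -0.33 (SE 0.42, limma adjusted p = 0.909) and turned to 0.19 without wild-type replicate 1. The other 5 miR160 mature probes gave differences from -0.73 for miR160d to 0.03 for miR160f. Without wild-type replicate 1 these were 0.0046 and 0.28, and miR160f turned to -0.22 without wild-type replicate 2. The 5′ flank of miR160d, on chromosome 3, read -4.35 and -3.03 on the line 2 arrays, -4.10 and -2.65 on the line 14 arrays and -1.70 and -3.26 on the wild-type arrays. There too wild-type replicate 1 is highest while replicate 2 lies within the line arrays, and the difference was -1.06 (SE 0.70, limma adjusted p = 0.816), or -0.27 without wild-type replicate 1.

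The 12 mature and 5′ flank probes of miR160 varied together from array to array. Set against each probe's own mean over the 6 arrays, their median was -0.82 and 0.06 on the line 2 arrays, -0.53 and 0.42 on the line 14 arrays and 1.15 and -0.24 on the wild-type arrays. Wild-type replicate 1 was the highest array for all 12 and wild-type replicate 2 lay below the probe's mean for all 12. Line 14 replicate 2 lay above it for 11. The replicates of each group thus lay further apart than the means of the groups.

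**Figure D4:**
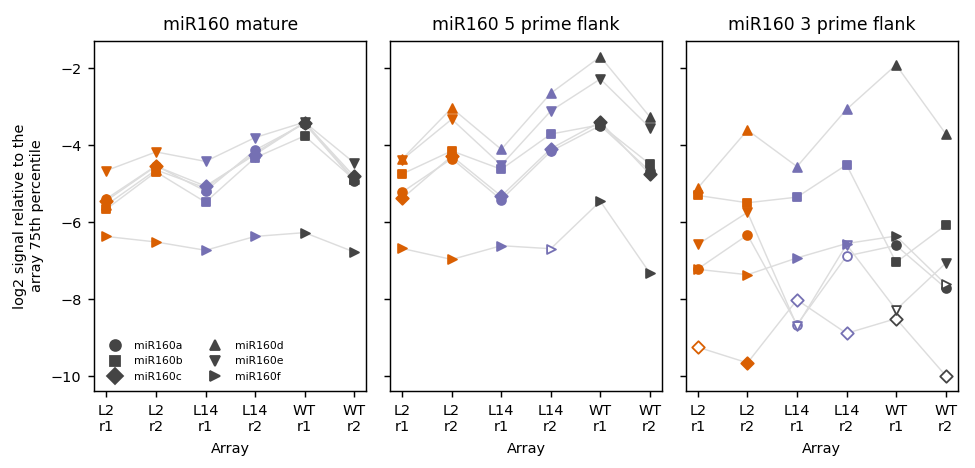
Log2 signal of the 18 miR160 probes minus the array's 75th percentile, by array (L2, line 2; L14, line 14; WT, wild type; r1 and r2, replicates), in 1 panel per probe region. Symbols mark the precursor, open symbols a probe that was not well above background, and grey lines join a probe's values. The mature and 5′ flank probes peak together on wild-type replicate 1, and the miR160b 3′ flank is lower in both wild-type arrays.

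The 3′ flanks of miR160 went separate ways. That of miR160b, on chromosome 6, read -5.30 and -5.49 on the line 2 arrays, -5.34 and -4.50 on the line 14 arrays and -7.04 and -6.08 on the wild-type arrays. It is the only probe detected on all 6 arrays whose line arrays all lay above wild type with an unadjusted p under 0.05, at 1.40 (95% confidence interval 0.36 to 2.44, SE 0.41, limma adjusted p = 0.458). Without wild-type replicate 1 it was 0.92. The mature and 5′ flank probes of the same precursor gave -0.71 and -0.33, or -0.15 and 0.18 without wild-type replicate 1. For miR160d the 3′ flank read -5.10 and -3.60 on the line 2 arrays, -4.55 and -3.07 on the line 14 arrays and -1.91 and -3.69 on the wild-type arrays, following the 5′ flank of its precursor. Its difference was -1.28 (SE 0.77, limma adjusted p = 0.795), or -0.39 without wild-type replicate 1. The miR160a 3′ flank, on chromosome 2, was detected on both line 2 and both wild-type arrays and on neither line 14 array. Its pooled difference was -0.11 (limma adjusted p = 0.984), turned to 0.44 without wild-type replicate 1, 0.11 without line 2 replicate 1 and 0.33 without line 14 replicate 1, and its line 14 values of -8.66 and -6.87 overlap those of wild type, -6.60 and -7.70. The miR160e 3′ flank had a difference of 0.77 (limma adjusted p = 0.874), or 0.17 without wild-type replicate 1. It was detected on both line 2 arrays, at -6.57 and -5.74, and on neither line 14 array, at -8.69 and -6.58. In wild type it was not detected on replicate 1, at -8.27, and was detected on replicate 2, at -7.06. Line 2 minus wild type was 1.51 (limma adjusted p = 0.891).

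miR164, whose NAC targets include regulators of organ boundaries and senescence, held the largest fitted difference of the 35 probes. The 3′ flank of miR164e, on chromosome 3, read -6.04 and -8.56 on the line 2 arrays, -5.75 and -4.34 on the line 14 arrays and -9.06 and -9.81 on the wild-type arrays. It was detected on all 4 line arrays and on neither wild-type array, the only one of the 129 probes with that pattern. The share of all features with that pattern was not counted. The fitted difference was 3.26 (95% confidence interval 1.19 to 5.33, SE 0.82, limma adjusted p = 0.373), and the lines were at least 4.67-fold above wild type. The line means were at least 2.14-fold above wild type in line 2 and at least 10.2-fold in line 14. For line 2 alone the fitted difference was 2.13 (limma adjusted p = 0.833), and its 95% confidence interval, -0.26 to 4.53, spans both signs. Line 2 replicate 2, at -8.56, lay below the lowest signal among detected probes on both wild-type arrays, -8.31 and -8.49. The line 2 fold thus rests on replicate 1. For such folds a dim group stands, on each array, at its own signal or at the lowest signal among detected probes, whichever is higher. "At least" refers to this floor only. The folds are point estimates from group means, not limits of a confidence interval. Some undetected probes exceed that lowest signal, and the folds hold for the processed intensity alone. Normexp with quantile normalization uses an offset that raises dim signals. After it this flank differed from wild type by 2.33-fold for both lines, 1.60-fold in line 2 and 3.41-fold in line 14. The line 2 replicates differ by more than 2 on the log2 scale, with replicate 2 close to wild type. With each array left out the pooled difference lay between 2.63 and 3.89.

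The other miR164e regions did not follow that flank. Its mature probe was detected on line 2 replicate 2 and wild-type replicate 1 and was not tested. It was highest on wild-type replicate 1, at -5.71, and lay between -8.93 and -8.11 on the other 5 arrays. Of the 6 miR164 mature probes, the line 2 arrays detected 0 and 2, the line 14 arrays 0 each, and the wild-type arrays 6 and 1. That of miR164a, on chromosome 7, was the only one detected on both wild-type arrays. It read -9.32 and -10.73 on the line 2 arrays, -8.74 and -8.81 on the line 14 arrays and -7.30 and -7.93 on the wild-type arrays. No line array detected it, and wild type was at least 1.59-fold above the lines (fitted difference -1.79, SE 0.47, limma adjusted p = 0.391). Without wild-type replicate 1 the fitted difference was -1.47 and the fold above the lines 1.28.

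The flanks of miR164f, on chromosome 5, separated line 2 from the other groups more than the lines from wild type. Its 5′ flank read -7.32 and -7.47 on the line 2 arrays, -6.32 and -6.42 on the line 14 arrays and -6.28 and -6.39 on the wild-type arrays, so both line 2 arrays lay about 1 below the rest. The difference was -1.06 in line 2 (95% confidence interval -1.75 to -0.37, limma adjusted p = 0.471) and -0.04 in line 14. The 3′ flank of the same precursor read -5.82 and -6.06 on the line 2 arrays, -4.83 and -5.18 on the line 14 arrays and -5.20 and -5.40 on the wild-type arrays. Line 2 was at -0.64 relative to wild type (limma adjusted p = 0.853), whereas line 14 was at 0.29 (limma adjusted p = 0.907). The miR164b 5′ flank, also on chromosome 5, overlapped between the groups, with a pooled difference of -0.29 (limma adjusted p = 0.922) that turned to 0.15 without wild-type replicate 1.

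miR172, known for its AP2-type targets in flower and seed, was detected on the line 2 arrays alone. That rests on 3 flank probes, as no mature probe was detected on any array. The miR172b 5′ flank, on chromosome 1, read -6.13 and -6.66 on the line 2 arrays, -6.85 and -8.71 on the line 14 arrays and -9.08 and -9.60 on the wild-type arrays. Both line 2 arrays stand above the other 4. The line 14 arrays, though not detected, lie above wild type. Line 14 replicate 2 and both wild-type arrays read under the lowest signal among detected probes on their own array, -7.59, -8.31 and -8.49. That lowest signal differs between arrays, so the order of these dim readings cannot be taken as a difference in RNA. With no filter on dim probes, line 14 exceeded line 2 in 116 of the 129 probes. Line 2 was at least 4.01-fold above wild type (fitted difference 2.94, 95% confidence interval 1.26 to 4.63, limma adjusted p = 0.373). For both lines together the fitted difference was 2.25 (SE 0.58, limma adjusted p = 0.381). The 3′ flank of the same precursor read -5.93 and -5.66 on the line 2 arrays, -6.57 and -8.76 on the line 14 arrays and -9.26 and -7.82 on the wild-type arrays. Line 2 was at least 4.82-fold above wild type there (fitted difference 2.74, limma adjusted p = 0.600). The pooled difference of this flank was 1.81, and without wild-type replicate 1 it was 1.09. After normexp with quantile normalization line 2 was 1.92-fold above wild type at the 5′ flank and 1.94-fold at the 3′ flank, under both bounds. The miR172a 5′ flank, on chromosome 9, was detected in line 2 only as well. It read -7.90 and -8.89 on the line 2 arrays, -8.72 and -8.77 on the line 14 arrays and -8.78 and -9.43 on the wild-type arrays. Its arrays overlap, and line 2 minus wild type was 0.71 (limma adjusted p = 0.927). The detected reading of -8.89 on line 2 replicate 2 lies under undetected readings on both line 14 arrays and wild-type replicate 1. On line 2 replicate 2 the lowest signal among detected probes was -9.76, lower than on any other array. Detection in line 2 alone is thus partly a matter of each array's own threshold.

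**Figure D5:**
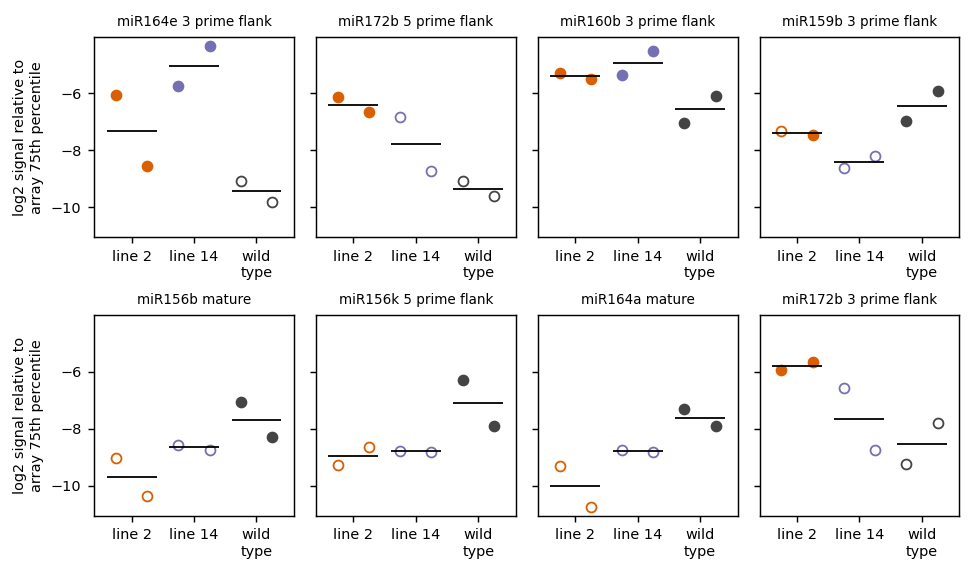
Log2 signal minus the 75th percentile of the array, on each array, for the 7 tested probes with an unadjusted limma p under 0.05 for both lines minus wild type, and the miR172b 3′ flank. Filled points are arrays on which the probe was well above background, open points are dim, and lines are group means. In every panel except the miR160b 3′ flank at least 1 group has no detected array or only some.

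miR156, which restrains SPL factors, was detected on all 6 arrays through 2 of its flanks only. The miR156h 3′ flank, on chromosome 6, read -3.58 and -4.27 on the line 2 arrays, -3.70 and -3.94 on the line 14 arrays and -3.93 and -4.43 on the wild-type arrays. The 3 groups overlap, at a difference of 0.31 (95% confidence interval -0.52 to 1.14, SE 0.33, limma adjusted p = 0.890). The miR156d 3′ flank, on chromosome 2, gave 0.28 (limma adjusted p = 0.963), or 1.07 without wild-type replicate 1, -0.51 without wild-type replicate 2 and -0.22 without line 2 replicate 1, with replicates about 2 apart in line 2, at -5.06 and -7.07, and -5.02 and -6.60 in wild type. Of the 11 mature probes, the line 2 arrays detected 1 and 0, the line 14 arrays 2 and 0, and the wild-type arrays 8 and 2.

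Detected on both wild-type arrays and on no line array were 3 miR156 probes, the mature probes of miR156b and miR156k and the miR156k 5′ flank. How many of all features had this pattern was not counted. The miR156b mature probe, on chromosome 1, read -9.03 and -10.37 on the line 2 arrays, -8.56 and -8.75 on the line 14 arrays and -7.08 and -8.30 on the wild-type arrays. Wild type was at least 1.5-fold above the lines (fitted difference -1.49, SE 0.53, limma adjusted p = 0.586). In the authors' deposited values, which are quantile normalized, the same probe passed the threshold (-2.66, limma adjusted p = 0.0499). The miR156k 5′ flank, on chromosome 9, read -9.26 and -8.64 on the line 2 arrays, -8.77 and -8.81 on the line 14 arrays and -6.30 and -7.93 on the wild-type arrays. Wild type was at least 1.85-fold above the lines there (fitted difference -1.76, limma adjusted p = 0.454). For the miR156k mature probe wild type was at least 1.44-fold above the lines (fitted difference -1.03, limma adjusted p = 0.716). In all 3 wild-type replicate 1 is the highest array, and without it the fitted differences were -0.88 for mature miR156b, -0.94 for the miR156k 5′ flank and -0.24 for mature miR156k. Wild-type replicate 2 alone was 0.988, 1.05 and 0.829 times the floored line mean for these probes, so the 3 bounds rest on replicate 1. The miR156c 5′ flank was detected on 1 array of each group and was not tested.

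miR159, which restrains GAMYB-type factors, was represented by flanks of miR159a and miR159b, both on chromosome 1. The miR159b 3′ flank read -7.33 and -7.45 on the line 2 arrays, -8.60 and -8.19 on the line 14 arrays and -6.96 and -5.93 on the wild-type arrays. All line arrays lay below both wild-type arrays, at a fitted difference of -1.45 (95% confidence interval -2.39 to -0.51, SE 0.37, limma adjusted p = 0.381). Without wild-type replicate 2 it was -0.93. Line 14 detected it on neither array, and wild type was at least 2.22-fold above line 14 (fitted difference -1.95, limma adjusted p = 0.368). The miR159a 3′ flank, detected everywhere, read -5.48 and -5.14 on the line 2 arrays, -6.64 and -5.45 on the line 14 arrays and -5.00 and -4.39 on the wild-type arrays. It also lay below wild type on all 4 line arrays, at -0.99 (SE 0.43, limma adjusted p = 0.676). The miR159a 5′ flank overlapped between groups, at 0.23 (limma adjusted p = 0.955), with the sign turned to -0.22 without wild-type replicate 1 and -0.08 without line 14 replicate 1. Of the 6 miR159 mature probes, 1 was detected in line 14 and 2 in wild type, each on 1 array, and that of miR159c was detected at -6.19 on line 14 replicate 2 and -7.01 on wild-type replicate 1.

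miR167, which acts on auxin response factors of flower and seed development, had 5 probes detected on some array and none to test. The most widely detected, the miR167h 3′ flank, was detected on 2 arrays, line 2 replicate 1 and line 14 replicate 2. Described below is the brightest detected probe of each region. The miR167e 3′ flank, on chromosome 2, read -8.65 and -10.74 on the line 2 arrays, -6.85 and -7.05 on the line 14 arrays and -8.80 and -7.01 on the wild-type arrays. Its values reached about -7 on both line 14 arrays and 1 wild-type array. Only wild-type replicate 2 detected it, and both line 14 readings were not well above background. The miR167g mature probe, on chromosome 3, reached -6.70 on line 14 replicate 1 and lay at -8.70 or below on the other 5 arrays. The 5′ flank of the same precursor was highest on wild-type replicate 1, at -6.85. Detection of 1 of 30 probes per array stands beside the 9.17% to 13.3% of genomic-sequence control spots detected.

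None of the 35 probes was called between line 14 and line 2 at the adjusted threshold. The direct comparison called 0% of all features, and 2 of the 35 probes had an unadjusted limma p under 0.05, against 3.46% of all features. Line 14 was lower than line 2 in 10 of the 35 (49.6% of all features), with a median of 0.28 that was -0.02 without line 2 replicate 1 and -0.01 without line 14 replicate 2. The 2 probes are the 5′ flank of miR164f, at 1.03 (95% confidence interval 0.34 to 1.72), and its 3′ flank, at 0.93 (0.17 to 1.69), with a limma adjusted p of 1.00 for both. The miR164e 3′ flank was higher in line 14 by 2.26 (-0.14 to 4.65). Line 2 was at least 1.77-fold above line 14 at the miR172b 5′ flank and at least 2.44-fold at its 3′ flank, with fitted differences of line 14 minus line 2 of -1.38 (-3.07 to 0.30) and -1.87 (-4.01 to 0.26). Both intervals span both signs, and the folds are point estimates. Line 14 minus line 2 is also slide 2 minus slide 1.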

How the data were processed

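Per the file headers, the authors scanned Agilent design 15241 arrays with Feature Extraction 10.7.3.1 and deposited a linear, background-subtracted intensity for each spot. Deposited detection flags are 0 or 1. A table of values that the authors deposited holds quantile-normalized log2 signals, by a method not given in the sources used here. The number of arrays limits the precision.

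Control spots (1417 of 45151) and outlier spots (0.0983% to 0.183%) were left out. Log2 processed signals were set relative to the 75th percentile of their array and averaged per probe. Of 42418 probes 32419 were kept as detected on both arrays of at least 1 group, and 22284 features were tested, 1 per locus (its brightest kept probe) and each microRNA probe on its own. limma 3.58.1 under R 4.3.3 fitted a mean per group over all 6 arrays, with 3 residual and 2.36 prior degrees of freedom and Benjamini-Hochberg adjustment at 0.05. The code was tested on simulated data. Figures were drawn with matplotlib 3.10.9.

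Named probes are the brightest detected member of each family and region, the 3 smallest unadjusted p in each direction, and those detected on both arrays of 1 group and none of another, 27 in all. The differences of further miR160 probes and of the miR156d 3′ flank were added after their values were seen. The members and lists were chosen with earlier results of these data known. Lists of target genes and tissue markers could not be formed, as the reference gene table matched 0 of 29695 locus IDs and 0 of 169 microRNA names. Normexp used the median spot signal, the only raw signal in the files, which departs from the plan. Replicate numbers did not pair the arrays.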

Additional observations from a re-analysis of the deposited data

Results flagged for a closer look

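At the miR164f 3′ flank the lines lay on opposite sides of wild type. Both line 2 arrays were below both wild-type arrays, at -5.82 and -6.06 against -5.20 and -5.40, and both line 14 arrays were above them, at -4.83 and -5.18. The line 14 side is slight, as its replicate 2 almost equals wild-type replicate 1. Line 14 minus wild type was 0.29, with a 95% confidence interval of -0.47 to 1.05 that spans both signs. Line 14 minus line 2 was 0.93 on the log2 scale (95% confidence interval 0.17 to 1.69), with an unadjusted limma p of 0.0255 and a limma adjusted p of 1.00, so the difference did not pass. Line 14 was on a slide of its own, and line and slide cannot be told apart.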

How the results depend on the processing

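No probe of the 6 families was called in any of the 4 comparisons under any alternative run, with 1 exception. In the authors' deposited values 1 probe was called for both lines, that of mature miR156b (-2.66, limma adjusted p = 0.0499). The cause was not tested. The median difference of -0.35 for both lines was -0.16 after normexp with quantile normalization, -0.16 with no filter on dim probes (129 probes) and -0.63 over the 19 probes detected on all 6 arrays. With each array left out it lay between -1.38 and 0.0046, the lowest without wild-type replicate 2, where 58 probes passed the filter, and the highest without wild-type replicate 1, where 37 did. Over the same 35 probes, an alternative added after seeing the data, it lay between -0.84 and 0.11, again lowest without wild-type replicate 2 and highest without wild-type replicate 1, and was -0.52 without line 14 replicate 2 and -0.48 without line 2 replicate 2. Without wild-type replicate 1 the miR159a 5′ flank was -0.22, the miR160a 3′ flank 0.44, mature miR160e 0.19 and the miR164b 5′ flank 0.15. Without line 14 replicate 1 the miR159a 5′ flank was -0.08 and the miR160a 3′ flank 0.33, and the miR160a 3′ flank was 0.11 without line 2 replicate 1 and 0.0068 after normexp. These signs are opposite to those with all arrays, and none passed the test. Signs turned without some array in 12 of the 35 probes. All "at least" folds are point estimates of the processed intensity with a floor for dim arrays, and normexp gave smaller folds for each. The opposite end of the range with 1 array left out was in each case without wild-type replicate 2, at 0.69 for the miR159a 5′ flank, -0.67 for the miR160a 3′ flank, -0.86 for mature miR160e and -0.73 for the miR164b 5′ flank. With the scanner's positive-and-significant flag the line 2 arrays detected 60 and 91 probes, the line 14 arrays 67 and 70, and the wild-type arrays 100 and 74. With every spot required, wild-type replicate 2 detected 21.

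Replicate numbers were shared between groups, but same-numbered arrays deviated together at correlations of 0.06, 0.03 and 0.08, so the numbers do not pair the arrays. With the replicate block 0 probes of the 6 families were called, and the calls among all features for both lines were 1, against 32. That count was 4 with no filter on dim probes and 4 over features detected on all 6 arrays, and with 1 array left out it was 0 to 2, except 228 without wild-type replicate 2. Median scaling moved the median of all features for line 14 by 0.11. With slide as a block line 14 could not be fitted, and line 2 gave 0 calls among the 6 families. Arrays of the compared groups alone are all arrays in the pooled comparison, so that alternative was run for the others only.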
